A study of Mus musculus with 166 samples.

Results

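The genes described here encode the proteins of the cytosolic ribosome, measured as mRNA in the cerebellum of Htt CAG knock-in mice. They were taken by symbol, as every gene named Rpl or Rps plus a number, with an optional letter a, x, y or l, together with Rplp0, Rplp1, Rplp2 and Rpsa. Names of pseudogenes (ending in -ps) were left out. Of 82 such symbols, 77 reached 0.5 CPM (the count over the library's total, scaled to 1000000) in at least 8 libraries. They were 77 of the 16528 genes that passed this filter and were tested, out of 39179 rows in the table. The 77 genes held 43 large subunit genes, 31 small subunit genes and the 3 genes of the stalk, and they lay on 19 chromosomes, with Rpl10, Rpl36a, Rpl39 and Rps4x on X.

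The mice were heterozygous on C57BL/6 (the methods of the study name C57BL/6J dams) and carried 1 endogenous Htt allele beside an allele with a knocked-in human HTT exon 1 whose CAG repeat had the length in the line's name. The lines were Q175 (which arose from Q140 by spontaneous expansion), Q140 (Htt tm1Mfc), Q111 (Htt tm5Mem), Q92 (Htt tm4Mem), Q80 (Htt tm1.1Pfs) and Q20 (Htt tm2Mem), with WT littermates of Q20 that carried no knock-in. Controls were the pool of WT and Q20, following the study's methods. Mice were sampled at 2, 6 and 10 months, with 8 libraries for each line and age (7 for Q111 and for Q140 at 10 months), 166 in all, of which 83 were labelled female and 83 male. The labels record each line as housed with its own genotype, and WT with Q20, while the study's methods describe cages that mixed heterozygous and WT mice. By the labels, housing and line cannot be told apart except between WT and Q20. The knocked-in exon sits in the mouse Htt gene itself, so no transgene promoter limits its expression to a cell type. Whole cerebellum was used, and in such bulk RNA fewer cells of a type and less RNA per cell cannot be told apart. Libraries are named below by labelled sex and replicate number.

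Markers of the labelled tissue were present. Cbln3 of granule cells had a median of 1559 CPM and Itpr1 of Purkinje cells 4185 CPM. Total counts per library ran between 23448953 and 43066107, with a median of 33994200. No pair of libraries held identical values (0 pairs). In 2 libraries the sex-linked genes did not match the labelled sex. Library names in the labels mostly carried a suffix after the lane. At 10 months those of Q175 M2 and M4, Q111 M1, Q92 M4 and WT F3 lacked it. At 6 months that of Q111 M1 lacked it. No term was fitted for this difference, and its part in the results was not tested. In 16 libraries Htt was under 150 CPM (60.9 to 143.8 CPM), against 151.3 to 311.5 CPM in the other 150. Animals of 2 months gave 13 of these 16 libraries, animals of 6 months 2 and animals of 10 months 1. They are called low-Htt libraries here. Htt also differed between lines among the other libraries (at 10 months 216.8 to 258.8 CPM in Q175 and 219.2 to 306.0 CPM in controls), so a fixed limit of 150 CPM lies at a different distance from the usual level of each line. They are described before any comparison because the 77 genes stood apart in them, and each comparison below is given with and without them.

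Ribosomal proteins coat the ribosomal RNA of the small subunit, which reads the mRNA, and of the large subunit, which joins amino acids. The stalk is the arm of the large subunit to which the factors that drive elongation bind. Nearly all of these proteins are needed in a single copy per ribosome, so their mRNAs are made together in every cell. Their mRNAs typically begin with a C followed by a run of pyrimidines, the terminal oligopyrimidine (TOP) start, through which the kinase complex mTORC1 and the RNA-binding protein Larp1 set how much of each mRNA is translated. The values below are mRNA levels and do not show translation.

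The first bases of the transcripts were examined in RefSeq (GRCm38.p6), where 56 of the 77 symbols had an entry. Within 20 bases on either side of the annotated start, a run of at least 6 letters that were each C or T on the sense strand was found for 40 of these 56 genes (71.4%), against 11145 of all 27025 symbols in the table (41.2%). The median of the longest run was 7.5 bases for the 56 genes and 5 bases for all symbols. The 9 windows printed here belong to the genes whose levels differed most, and to those whose levels differed least, between low-Htt and other libraries, since the results return to these genes. Each holds 10 bases before the start and 20 bases from the start on, read 5′ to 3′ along the gene's strand, with the longest run of C or T in the window in capitals. Rpl36, which differed most, had no entry. The windows of the genes that differed most were as follows.
Rplp2 (chr7:141447641-141447670, plus strand): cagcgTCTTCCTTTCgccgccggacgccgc
Rps21 (chr2:180257369-180257398, plus strand): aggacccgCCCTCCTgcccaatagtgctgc
Rpl41 (chr10:128549149-128549178, minus strand): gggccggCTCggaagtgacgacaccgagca
Rps26 (chr10:128626487-128626516, minus strand): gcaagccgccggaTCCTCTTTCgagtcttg
The windows of the genes that differed least were as follows.
Rps6 (chr4:86857348-86857377, minus strand): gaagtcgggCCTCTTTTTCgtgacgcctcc
Rps12 (chr10:23787190-23787219, minus strand): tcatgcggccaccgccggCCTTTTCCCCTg
Rpl15 (chr14:18270967-18270996, minus strand): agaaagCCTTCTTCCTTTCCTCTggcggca
Rpl10a (chr17:28328461-28328490, plus strand): gCCCCCCCagcggccgcaaactgcagcgcc
Rps15a (chr7:118116128-118116157, minus strand): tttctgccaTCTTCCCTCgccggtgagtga
Runs of 7 or more bases occurred in both sets, and the longest of the 9, of 17 bases, was in Rpl15. Rps21 and Rpl10a had 2 entries each, of which the first was used. For Rpl41 the longest run in the window had 3 bases, which says only that no longer run is in these letters.

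Not every row of the table is a clean measure of its gene. Ribosomal protein genes have many processed pseudogenes of near-identical sequence, and how shared reads were divided is not given in the sources used here. For Rps6, the target of S6 kinase, the gene's own row had 1.68, 4.12 and 8.64 CPM (lowest, median and highest of the 150 other libraries), while the sum with its 4 pseudogene rows had 152, 196 and 263 CPM. The coefficient of variation was 35.4% for the Rps6 row and 8.13% for this sum. Rps16 had 27.5 CPM (median) in its own row and 76.2 CPM with its 2 pseudogene rows, with a coefficient of variation of 52.0% and 11.8%. Rps13 had 2.91 CPM alone and 70.1 CPM with 7 such rows, and Rps12 26.9 CPM alone and 82.9 CPM with 22. Rpl31 had 7.76 CPM alone and 116 CPM with 21 such rows, and Rpl28 had 12.1 CPM alone and 101 CPM with 3. For these genes most of the reads stood in pseudogene rows. By contrast, Rpsa had 192 CPM alone and 223 CPM with 8 rows, and Rps25 110 and 120 CPM. Results for Rps6, Rps12, Rps13, Rps16, Rpl10, Rpl10a, Rpl15, Rpl27, Rpl28 and Rpl31 therefore describe an uncertain share of each gene's mRNA. Rps4l is annotated as a transcribed pseudogene of Rps4x and is a member by its name only. Rps27 reached at most 0.0472 CPM and fell out at the filter, while the row of Rps27rt, for which RefSeq lists Rps27 as a synonym, had a median of 77.1 CPM and lies outside the naming rule. Rpl10l, which replaces X-linked Rpl10 in the male germ line, was at 0 in every library. Rpl39l, Rpl3l (the heart and skeletal muscle form of Rpl3) and Rpl6l also fell out, at no more than 0.342, 0.881 and 0.487 CPM.

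Levels between genes were compared on the deposited FPKM scale, which divides by transcript length, over the 150 other libraries. The median of the 77 genes was 128 FPKM. Rps24 was highest at 336 FPKM, followed by Rpl26 (301 FPKM), Rps29 (282 FPKM), Rpl23a (277 FPKM) and Rpl9 (253 FPKM). Rpl3, which lines the catalytic centre, had 224 FPKM and Rpl4, which lines the exit tunnel, 233 FPKM. Rps27a, made as a fusion to ubiquitin, had 183 FPKM. The stalk genes were at 236 FPKM for Rplp1, 115 FPKM for Rplp0 and 91.0 FPKM for Rplp2. Rpl5 had 26.5 FPKM against 85.1 FPKM for Rpl11, although both proteins join the large subunit together with 5S ribosomal RNA. Rps19, the gene most often mutated in human Diamond-Blackfan anaemia, had 114 FPKM. The lowest rows were Rps6 (4.61 FPKM), Rps13 (5.02 FPKM), Rpl31 (7.13 FPKM), Rps4l (7.76 FPKM) and Rpl27 (9.01 FPKM), all rows of the kind described above. Rps27l, a paralog of Rps27 with a p53-responsive promoter, had 16.7 FPKM. Large and small subunit genes had like medians, 128 and 130 FPKM.

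The summed level of the 77 genes was high in every low-Htt library. It was 11000 to 33989 CPM in the 16 low-Htt libraries (median 16552 CPM) and 5891 to 10744 CPM in the 150 other libraries (median 7578 CPM), and the groups did not overlap. The highest sums were in the Q92 library F1 (33989 CPM) and the Q140 library M3 (29297 CPM), both of 2 months. The length index moved with this. It is the mean level of the 25% of genes with the longest transcripts (over 3897 bases) minus that of the 25% with the shortest (under 1645 bases), on a centred log2 scale and without the 77 genes, and it ran between -1.58 and -0.44 in low-Htt libraries and between -0.40 and 0.25 in the others. Low-Htt libraries thus held fewer counts of long transcripts, and Htt is itself a long transcript. What lowered the counts of long transcripts was not tested. Of the 17 libraries with a standardized connectivity under -5, the study's measure of how far a library lies from the rest of its age, 12 were low-Htt libraries.

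**Figure D1:**
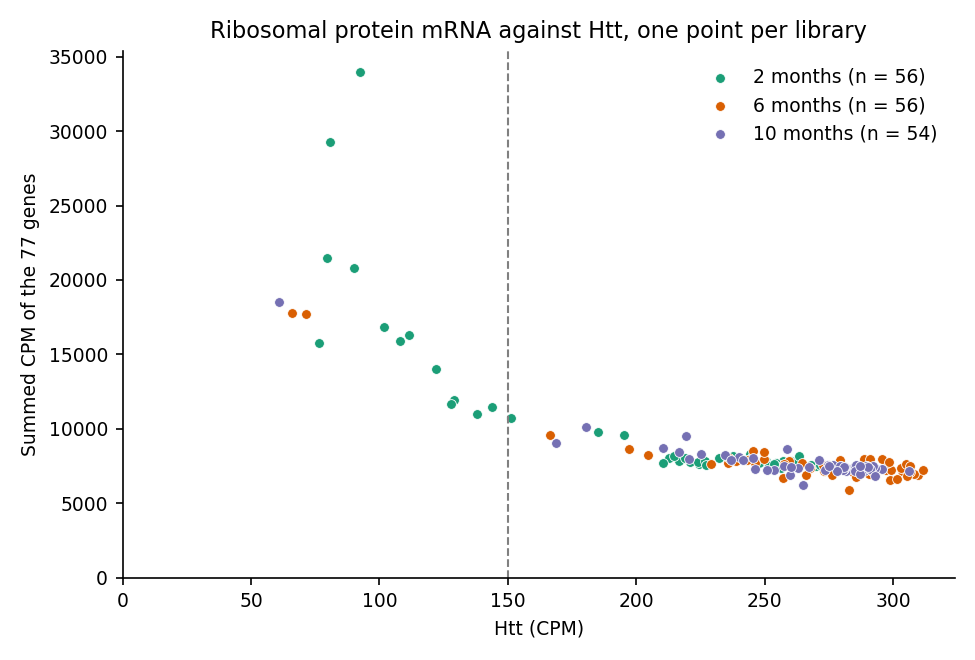
Summed CPM of the 77 ribosomal protein genes (vertical axis) against Htt in CPM (horizontal axis), with 1 point for each of 166 libraries, coloured by age, and a dashed line at 150 CPM. The 16 libraries left of the line lie between 11000 and 33989 CPM, above the 150 libraries right of it, which lie between 5891 and 10744 CPM.

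Since the libraries were separated by a measured gene, these differences are given as a description without a test. The mean log2(CPM + 0.1) was higher in low-Htt than in other libraries for 77 of 77 genes, by more than 1 for 55 of them and by less than 0.5 for 4. The median difference was 1.24 for the 77 genes and -0.07 for all genes tested. For 37 of the 77, all 16 low-Htt libraries lay above all 150 others. This count was not made over all genes tested, so it is not known whether it is high for these genes. Rpl36 differed most, by 1.92, with 69.6, 122 and 431 CPM (lowest, median, highest) in low-Htt and 12.9, 35.0 and 72.5 CPM in other libraries, which overlapped slightly. Rplp2 followed with 1.70, then Rps21 (1.63), Rpl41, the shortest protein of the ribosome (1.61), and Rps26 (1.60). The smallest differences were those of Rps6 (0.14), Rps12 (0.30), Rpl15 (0.42), Rpl10a (0.43) and Rps15a (0.51). When pseudogene rows were added, the difference of Rps6 was 1.05, that of Rps12 1.31 and that of Rpl10a 1.14, so these small values belonged to the gene rows and not to the summed mRNA. For Rpl15 the sum gave 0.75.

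The size of the difference followed transcript length. Across the 77 genes its Pearson correlation with log2 effective length (counts over FPKM, scaled) was -0.65 and its Spearman correlation -0.67, given as a description because the genes share the same libraries. These correlations and the medians by length below keep the rows that describe an uncertain share of a gene's mRNA. They were not computed without those rows. The 26 genes with the shortest transcripts (up to 620 bases) had a median difference of 1.38, the 25 of middle length 1.23 and the 26 with the longest (from 877 bases) 0.93. Medians by role were 1.22 for the large subunit, 1.26 for the small subunit and 1.56 for the stalk. Other lists of genes with short transcripts moved alike. The median was 1.25 for 82 nuclear subunits of oxidative phosphorylation, 0.91 for 77 mitochondrial ribosomal proteins and 1.20 for the 6 ribosomal proteins outside the naming rule (such as Fau). It was 0.57 for 18 other mRNAs with a TOP start, which are longer, 0.12 for 35 ribosome biogenesis genes and -0.06 for 20 genes of growth control such as Mtor. The direction for the 77 genes was thus shared by genes of another compartment with transcripts of like length. Cell type markers differed as well in low-Htt libraries, with a median sum of 339 CPM for 5 blood markers, against 137 CPM in other libraries (median log2 difference 1.28). The sum was 5261 against 4166 CPM for 5 oligodendrocyte markers and 5531 against 7341 CPM for 5 Purkinje cell markers, with median log2 differences of 0.36 and 0.33. For Purkinje cell markers the sum and the median thus differed in direction. Sums were lower for 6 granule cell markers (3823 against 4203 CPM) and 5 of Bergmann glia and astrocytes (1746 against 2088 CPM). They were also lower for 6 of choroid plexus (55.2 against 248 CPM) and 4 of endothelium (163 against 177 CPM). For 5 microglia markers the sum was higher (86.7 against 82.7 CPM). Median log2 differences were -0.17, 0.05, -0.01, -0.20 and 0.11 in this order. The part of cell types in the differences was not tested.

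**Figure D2:**
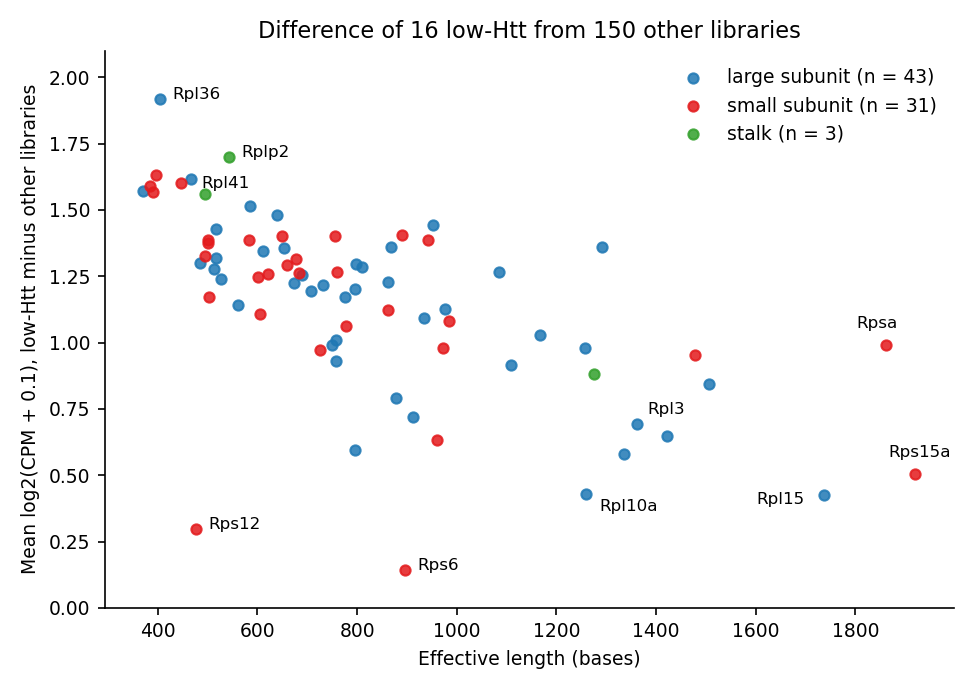
Mean log2(CPM + 0.1) in 16 low-Htt libraries minus that in 150 other libraries (vertical axis) against effective transcript length in bases (horizontal axis), with 1 point for each of the 43 large subunit, 31 small subunit and 3 stalk genes. All 77 points lie above 0, at 1.92 for Rpl36 and 0.14 for Rps6, and the differences tend to be smaller for longer transcripts.

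The genes also moved together among the 150 other libraries. After the mean of each line and age was subtracted from log2 CPM, the median Pearson correlation over the 2926 pairs of genes was 0.67, with quartiles of 0.44 and 0.82. The median correlation of a gene with the mean of the other 76 was 0.82. Rpl19 and Rpl13a reached 0.97, while Rps15a (0.17), Rpl5 (0.25), Rpl15 (0.37), Rpl10 (0.39) and Rps6 (0.40) were lowest. The median correlation of a gene with the length index in the same libraries was -0.78, so joint movement was shared with transcript length in general. These correlations are descriptive, since the genes of a library share its preparation and depth.

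The main question of the design is whether levels depend on the CAG repeat. Q175 carries the longest repeat. At 10 months, Q175 had small differences, most of them upward. The median log2 change of the 77 genes, Q175 over controls, was 0.09 without the low-Htt library of that age, with 75 of 77 above 0, while the median of all genes tested was -0.00. Rpl5, Rpl7a, Rps4x, Rplp0 and Rpl13 rose past an adjusted p of 0.05 (edgeR's quasi-likelihood test, adjusted over 16528 genes), which is 5 of 77, and 0 of 77 fell. In the same fit 9.77% of all genes rose, so the share of the 77 that passed was not above that of all genes. Against WT alone 1 of the 77 rose (Rpl5), beside 6.23% of all genes, and against Q20 alone 7 rose, these 5 among them, beside 7.69%. Leaving out libraries of low connectivity instead gave 12 of 77 that rose, beside 1981 of all 16528 genes (12%). With all libraries, 0 of 77 passed (2 had an unadjusted p under 0.05, and DESeq2 called 1), against 12.8% of all genes in either direction. The only low-Htt library of 10 months was the Q92 library M2, which was neither Q175 nor control. Leaving it out changed the estimates little and lowered their errors, because all lines share an estimate of the spread. The summed level was 8073 ± 422 CPM in Q175 (SD, n = 8; 7263 to 8663 CPM) and 7494 ± 580 CPM in controls (n = 16; 6831 to 9511 CPM), and the groups overlapped.

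Rpl5 had the clearest change. This protein and Rpl11 carry the 5S ribosomal RNA and, when free, bind the p53 regulator Mdm2. In Q175 at 10 months Rpl5 was at 34.3, 42.2, 45.7, 51.7, 51.7, 51.9, 55.4 and 57.8 CPM. In Q20 it was at 32.7, 35.8 and 42.2 CPM and in WT at 38.0, 39.4 and 42.4 CPM (lowest, median, highest). Of the 8 Q175 libraries 6 lay above all 16 control libraries, F2 lay at the upper end of the controls and M4 in their lower part. The log2 change was 0.34 ± 0.06 (SE, edgeR adjusted p = 2.3e-05), and 0.34 ± 0.12 (adjusted p = 0.055) with the Q92 library M2 kept. In the order of repeat length, the mean CPM of Rpl5 was 39.6 ± 1.61 for WT, 36.8 ± 3.29 for Q20, 42.1 ± 5.89 for Q80, 39.5 ± 2.65 for Q92, 38.7 ± 3.90 for Q111, 40.7 ± 2.20 for Q140 and 48.8 ± 7.69 for Q175 (SD, n = 7 or 8, without the low-Htt library). In the order of the levels, neighbours below Q175 differed by less than their SD. Rpl5 was also among the genes least tied to the others across libraries, as given above.

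Rpl7a, a large subunit protein, was at 145, 158 and 169 CPM in Q175 and 128, 139 and 171 CPM in controls (lowest, median, highest). Its log2 change was 0.15 ± 0.04 (SE, edgeR adjusted p = 0.0076). The highest control value came from the WT library F3, whose summed level also stood above the rest of WT, and 7 of 8 Q175 libraries lay above the other 15 controls. Rps4x, a small subunit protein encoded on X, averaged 183 ± 7.62 CPM in Q175 and 165 ± 10.3 CPM in controls (SD, n = 8 and 16). It changed by 0.14 ± 0.04 (adjusted p = 0.011). Rplp0, which anchors the stalk to the large subunit, averaged 154 ± 16.8 CPM in Q175 and 138 ± 14.8 CPM in controls and changed by 0.15 ± 0.05 (adjusted p = 0.035). Rpl13, mutated in a human skeletal dysplasia, averaged 107 ± 13.2 CPM in Q175 and 92.3 ± 15.0 CPM in controls and changed by 0.20 ± 0.07 (adjusted p = 0.045). All of these ranges overlapped between the groups. Of the 77 genes, 0 had groups that did not overlap, and for 74 the Q175 median lay above the control median. Neither count was made over all genes tested, so no share of all genes stands beside them.

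**Figure D3:**
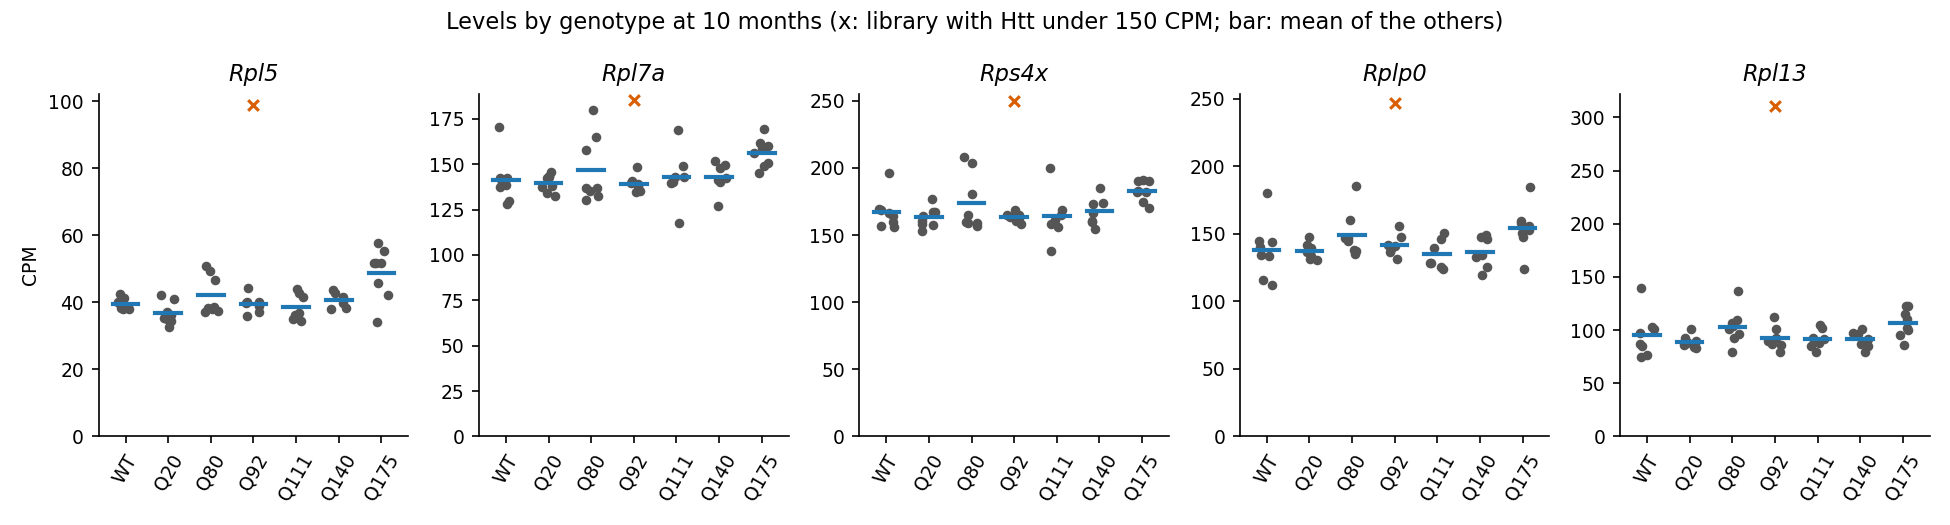
CPM (vertical axes, starting at 0) of Rpl5, Rpl7a, Rps4x, Rplp0 and Rpl13 at 10 months by line in the order of repeat length, with 1 point per library, a bar at the mean of each line and a cross for the low-Htt library, which is left out of the mean. Q175 means were 48.8 CPM for Rpl5, 156 CPM for Rpl7a, 183 CPM for Rps4x, 154 CPM for Rplp0 and 107 CPM for Rpl13, and the low-Htt library of Q92 lies above the Q175 points of each gene.

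The length index was then used as a covariate, together with leaving out the low-Htt library, a combination chosen after the data were seen. The index was 0.07 to 0.25 in Q175 and -0.16 to 0.24 in controls at 10 months. In this fit 40 of 77 genes rose in Q175 and 0 fell, against 13.6% of all genes that rose. The median change was 0.10, so estimates were nearly the same and their errors smaller. All 5 genes named above were among the 40, and DESeq2 without the low-Htt library called 8 genes that also held these 5. The share of all genes in that DESeq2 fit is not given here. With the index and all libraries kept 35 rose, against 11.8% of all genes. By role, the 40 were 22 of 43 large subunit genes, 17 of 31 small subunit genes and 1 of 3 stalk genes. Rpsa, which also serves as a laminin receptor, changed by 0.16 (adjusted p = 4.4e-05), Rps20 by 0.12 and Rps14 by 0.14. Genes that did not pass even there included Rpl22 at 0.03, Rps27a at 0.03, Rps19 at 0.06, Rpl3 at 0.05 and Rpl4 at 0.07. Rps13 and Rps16 had the largest estimates, 0.63 and 0.49, and did not pass, and both are rows whose reads stand mostly in pseudogenes. Without the covariate the median change in Q175 was 0.09 over each of the 26 shortest, the 25 middle and the 26 longest.

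**Figure D4:**
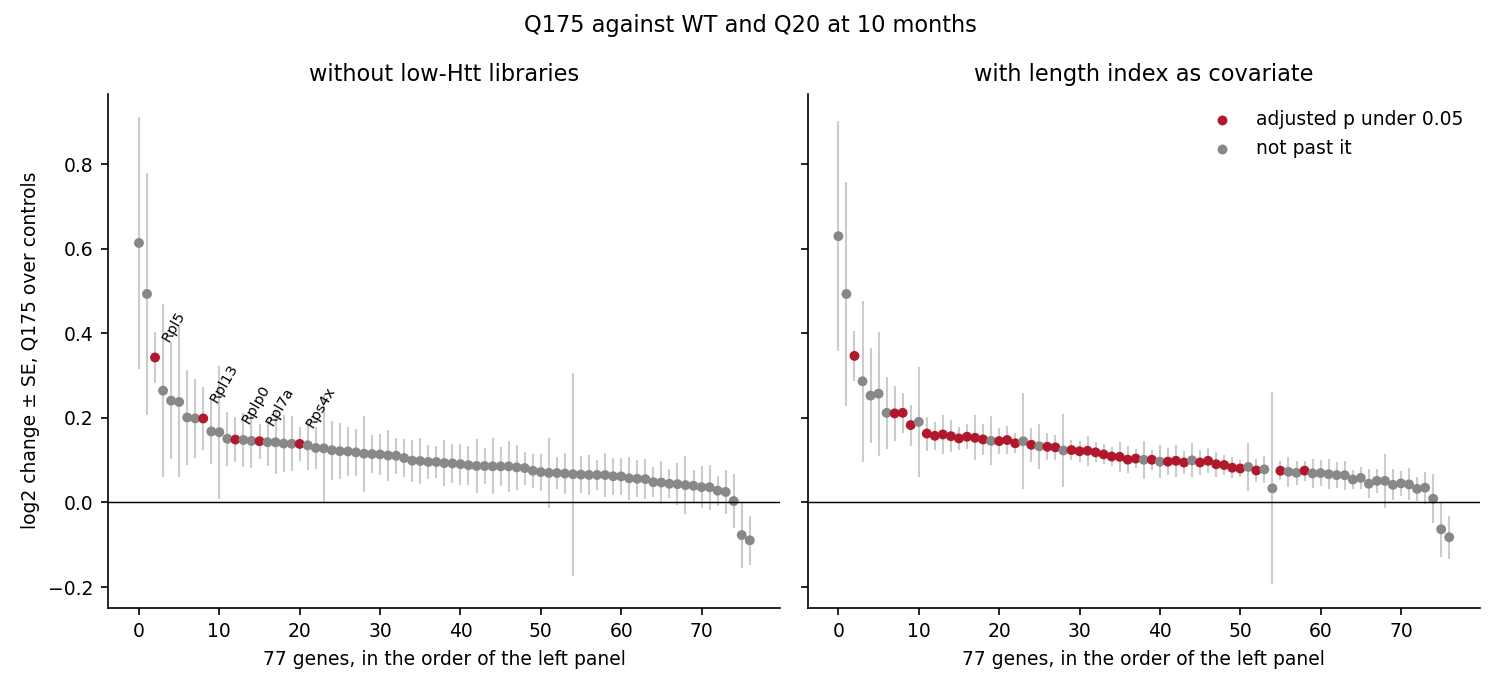
Log2 change ± SE (vertical axis) of the 77 genes in Q175 over WT and Q20 at 10 months, ordered by the change in the left panel, which leaves out the low-Htt library; the right panel also has the length index as a covariate. Red points passed an adjusted p of 0.05, 5 in the left and 40 in the right panel, and 75 points lie above 0 in each.

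Other members by role, without the low-Htt library and in the fit without the covariate, had estimates between -0.09 and 0.26. The stalk genes Rplp1 and Rplp2 were at 0.24 ± 0.14 and 0.20 ± 0.11 (SE), neither past the threshold. Rpl11 was at 0.11 ± 0.06. Of the 9 genes mutated in human Diamond-Blackfan anaemia 1 rose (Rpl5), with a median of 0.10, and Rps19 was at 0.05 ± 0.05. Among the remaining genes named for their role, Rpl37 was at 0.14 ± 0.07, Rpl38, which sets axial patterning in mouse, at 0.08 ± 0.05, Rpl39 at 0.09 ± 0.05, Rpl41 at 0.14 ± 0.07, Rps3, at the mRNA entry site, at 0.08 ± 0.04, Rps6 at 0.26 ± 0.21 and Rps29 at 0.20 ± 0.09. Rps27l was at 0.00 ± 0.06. Rpl31 (-0.08 ± 0.08) and Rpl27a (-0.09 ± 0.06) were the 2 below 0.

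Related gene lists in Q175 at 10 months, in the same fit, gave the following counts. Of 6 ribosomal proteins outside the naming rule 2 rose, with a median of 0.10. Of 18 other mRNAs with a TOP start 1 rose (median 0.05), and 5 did with the length covariate. Of 35 ribosome biogenesis genes 4 rose (median 0.02). Of 77 mitochondrial ribosomal proteins 1 rose and 3 fell (median -0.01), and of 82 oxidative phosphorylation subunits 3 rose and 2 fell (median 0.03). Of 20 growth control genes 1 rose and 1 fell (median 0.03). Of all genes 9.77% rose in the fit without the length covariate, and the share that fell is not given here. The differences between these lists were not tested.

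Cell type markers moved in the same comparison. All 5 oligodendrocyte markers fell in Q175 (median -0.33), and their summed level was 2808 to 4157 CPM in Q175, 4285 to 5485 CPM in Q20 and 3720 to 5071 CPM in WT. Of 5 Purkinje cell markers 4 fell (median -0.23; 5201 to 6769 CPM in Q175, 6507 to 7855 in Q20, 6226 to 7830 in WT). Of 5 markers of Bergmann glia and astrocytes 3 fell and 1 rose, of 6 granule cell markers 2 fell (median -0.05), and 1 of 5 microglia markers rose. Choroid plexus markers varied between dissections, from 29.8 to 1538 CPM in Q175 and from 36.5 to 2614 CPM in controls, with none past the threshold. The share of all genes that fell in this fit is not given here, so the counts of markers that fell stand without it. The part of cell composition in the changes of the 77 genes was not tested.

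In the other lines at 10 months no member passed the test once the low-Htt library was left out. Q92 gave the only calls with all libraries. There 3 of 77 genes rose, against 0.768% of all genes that rose and 0.817% called in either direction. Among them were Rps28 (0.87 ± 0.21, edgeR adjusted p = 0.031) and Rpl41 (0.93 ± 0.23, adjusted p = 0.036). The library M2 held 686 CPM of Rpl41, against 79.5 to 112 CPM in the other 7 Q92 libraries and 78.2 to 126 CPM in the 16 controls. Without M2 the changes were 0.06 for Rps28 and -0.01 for Rpl41, 0 of 77 passed (0 had an unadjusted p under 0.05, DESeq2 also called 0), and 0.0% of all genes did. The 3 calls thus rested on this library.

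For Q80, Q111 and Q140 at 10 months 0 of 77 passed with edgeR and with DESeq2, with and without the Q92 library M2. With all libraries 0.0%, 0.115% and 0.635% of all genes passed, and without it 0.133%, 0.454% and 1.61%. Unadjusted p-values under 0.05 numbered 32 of 77 for Q80 without the Q92 library M2 (17.6% of all genes), and 0 for Q111 and for Q140. For Q111 and Q140 the share of all genes with such a p is not given here. The Q80 median was 0.10 in that fit and -0.01 when the length index was added. Q80 held the libraries F1 (length index -0.23, 10097 CPM in sum), M1 (-0.16, 9047 CPM) and F4 (0.03, 8331 CPM), with a summed level of 8012 ± 1066 CPM in Q80 and 7494 ± 580 CPM in controls (SD, n = 8 and 16). Medians were -0.00 for Q111 and -0.01 for Q140. Q140, whose repeat is next in length below Q175, had a sum of 7400 ± 328 CPM (SD, n = 7), below that of Q175. Whether Q175 differed from Q140 was not tested.

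At 6 months the WT and Q175 libraries form a set of their own by the name format in the labels, so a term for this set was fitted, and the contrast of Q175 then rests on WT and that of each other line on Q20. For Q175 0 of 77 passed with all libraries (0 had an unadjusted p under 0.05, DESeq2 called 0), against 4.59% of all genes. Without the 2 low-Htt libraries 1 of 77 fell and 0 rose, against 11.1% of all genes in either direction. It was Rpl10, which joins the large subunit late and whose X-linked variants occur in human autism, at -0.18 ± 0.06 (SE, edgeR adjusted p = 0.047). Rpl10 was at 26.1, 32.9 and 38.9 CPM in Q175 and 35.2, 36.2 and 39.0 CPM in WT (lowest, median, highest), with overlap, and its row holds a minority of its reads. Rpl5 was at 40.0 ± 3.60 CPM in Q175 and 36.1 ± 3.66 CPM in WT (SD, n = 8 each) and did not pass (0.15 ± 0.06, SE, adjusted p = 0.11). The median of the 77 genes was 0.03. With the length index added, 3 rose and 1 fell, against 14.4% of all genes in either direction.

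For Q80, Q92, Q111 and Q140 at 6 months 0 of 77 passed in all of these fits, with edgeR and with DESeq2. With all libraries 0.0%, 0.0%, 0.0182% and 0.0363% of all genes passed, and without the low-Htt libraries 0.0%, 0.0%, 0.169% and 0.121%. With all libraries the medians were -0.27 for Q80, 0.02 for Q92, -0.36 for Q111 and -0.29 for Q140, and without the low-Htt libraries 0.02, -0.05, -0.08 and -0.00. The low-Htt libraries of this age were the Q20 library F3 (17693 CPM in sum), a control of these lines, and the Q92 library M3 (17794 CPM). When only Q92 M3 was left out, 34 of 77 genes fell in Q111, against 5.78% of all genes that fell. When Q20 F3 was left out as well, 0 fell, 24 had an unadjusted p under 0.05 (14.5% of all genes did) and DESeq2 called 0. The 34 calls thus rested on a single Q20 library. Among the libraries kept, Q111 F2 had the lowest sum of all libraries, 5891 CPM. Q20 F1, with 9584 CPM, stood above the rest of its group. Their part in the 24 unadjusted p-values was not tested.

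At 2 months, when 13 of the low-Htt libraries occurred, 0 of 77 passed for Q80, Q92, Q111, Q140 and Q175, with edgeR and with DESeq2, with and without these libraries. The share of all genes that passed was 0.0%, 0.0424%, 0.0%, 0.0% and 0.00605% with all libraries and 0.0121%, 0.0%, 0.0121%, 0.0% and 0.0182% without the low-Htt ones. With all libraries the medians were -0.08 for Q80, 0.52 for Q92, -0.04 for Q111, 0.35 for Q140 and 0.12 for Q175, and 32 of 77 genes had an unadjusted p under 0.05 for Q92 (6.81% of all genes). Without the low-Htt libraries they were -0.01, -0.00, 0.03, 0.10 and 0.00, and the count for Q92 was 0. It was 10 for Q140 (5.78% of all genes), whose library M1 had 151 CPM of Htt, next to the limit, and 10744 CPM in sum. Rpl5 in Q175 at 2 months was at 37.6, 40.4 and 41.4 CPM (lowest, median, highest, n = 6).

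A slope on CAG length was fitted across all lines. It is the log2 change per 100 CAG, with WT entered at 7. At 10 months 0 of 77 genes passed with all libraries (1 had an unadjusted p under 0.05, DESeq2 called 0), against 8.0% of all genes. Without the low-Htt library 2 of 77 rose, against 15.2% of all genes in either direction. They were Rpl5 (0.16 ± 0.04, SE, edgeR adjusted p = 0.0015) and Rpl7a (0.07 ± 0.02, adjusted p = 0.038). At 6 months 0 of 77 passed with all libraries (5.48% of all genes) and without the low-Htt ones (10.2%), and 0 had an unadjusted p under 0.05 in either fit, with 0 calls by DESeq2. At 2 months 0 of 77 passed in both fits, against 0.0303% and 0.0484% of all genes. There 0 genes had an unadjusted p under 0.05 with all libraries and 3 without the low-Htt ones, and DESeq2 called 0.

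The slopes of 6 and 10 months were also combined. With all libraries 0 of 77 passed (0 had an unadjusted p under 0.05, DESeq2 called 0), against 17.0% of all genes, and the mean slope was above 0 for 10 genes. Without the low-Htt libraries 63 of 77 were above 0, with a median of 0.02, and Rpl5 (0.10, adjusted p = 0.0028) and Rps4x (0.04, adjusted p = 0.038) rose, against 12.6% of all genes that rose. With the length index added as well, 34 of 77 rose and 0 fell, against 15.8% of all genes that rose, Rpsa, Rps7, Rpl4 and Rpl11 among them. Without WT, so that Q20 was the only control, and with all libraries kept, the combined slopes of Rpl5 and Rps4x were below 0 (-0.04 and -0.08). These Q20 libraries held the low-Htt library F3 of 6 months, and without low-Htt libraries the slopes against Q20 alone were 0.07 for Rpl5 and 0.02 for Rps4x, neither past the threshold. Without WT, Q175 was the only line of its library set at 6 months, so the term for the set took up its level. The slope of 6 months then ran over Q20 to Q140 only. The slopes against Q20 alone therefore differ from the others by more than the choice of control.

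Whether the slope differed between 10 and 2 months was tested as an interaction. With all libraries 0 of 77 passed (0 had an unadjusted p under 0.05, DESeq2 called 0), against 0.496% of all genes. Without the low-Htt libraries Rpl5 passed, with a slope at 10 months that was higher than that at 2 months by 0.20 ± 0.05 (SE, edgeR adjusted p = 0.015), against 2.18% of all genes. It was 1 of 77 genes and the only one of the 77 with an unadjusted p under 0.05. Its means at 2 months, without the low-Htt libraries, were 40.1 ± 1.36 CPM in Q175 (SD, n = 6), 43.3 ± 5.81 CPM in WT (n = 5) and 41.7 ± 4.02 CPM in Q20 (n = 8), so Q175 was not the highest line at that age. With the length index added, 3 genes passed, against 3.47% of all genes.

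Age was compared in the controls, 10 against 2 months, with WT and Q20 together. With all libraries 52 of 77 genes fell and 0 rose, with a median of -0.32, while 22.6% of all genes fell and 38.7% were called in either direction. The sums overlapped but were wider at 2 months. They were 6831 to 9511 CPM at 10 months (n = 16) and 7458 to 16817 CPM at 2 months (n = 16), where 3 WT libraries were low-Htt. Without these 3 libraries 26 of 77 fell, all among the 52, and 0 rose. The median was then -0.09, beside -0.00 for all genes, of which 17.0% fell. The share of the 77 that fell was still above that of all genes in this fit, and genes of other lists with short transcripts did likewise. Of 82 oxidative phosphorylation subunits 63 fell and 1 rose (median -0.15), of 77 mitochondrial ribosomal proteins 36 fell (median -0.09), and of 6 ribosomal proteins outside the naming rule 4 fell. Of 18 other mRNAs with a TOP start 4 rose and 0 fell.

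The genes with the smallest p for age with all libraries were Rps16, Rpl10a, Rpl27, Rps12, Rpl29, Rpl36, Rps27l, Rps21, Rps4l and Rplp1, and their values are given without the low-Htt libraries. Rps16 had 4.88, 18.7 and 34.3 CPM at 10 months and 19.3, 37.8 and 59.7 CPM at 2 months (lowest, median, highest), a log2 change of -1.11 ± 0.24 (SE, edgeR adjusted p = 0.00074). Rpl10a, used as a tagged ribosome handle in mice, averaged 19.3 ± 1.97 CPM at 10 months and 22.5 ± 1.74 CPM at 2 months (SD, n = 16 and 13) and changed by -0.23 ± 0.04. Rpl27 changed by -0.42 ± 0.08 and Rps12 by -0.49 ± 0.12. These 4 are rows whose reads are shared with pseudogene rows. Rpl29 had 55.8, 70.6 and 98.9 CPM at 10 months and 77.1, 84.1 and 112 CPM at 2 months and changed by -0.28 ± 0.06 (adjusted p = 0.00052). Rpl36 changed by -0.50 ± 0.14, Rps27l by -0.25 ± 0.05, Rps21 by -0.29 ± 0.07, Rps4l by -0.40 ± 0.12 and the stalk gene Rplp1 by -0.39 ± 0.12. All 3 stalk genes fell, as did both genes of the 5S particle. Of the 77, 0 had ages that did not overlap, a count not made over all genes tested. Rpl3, Rpl4 and Rps27a, with 320 ± 20.7, 342 ± 17.2 and 139 ± 9.86 CPM at 10 months and 306 ± 18.1, 333 ± 21.7 and 136 ± 13.3 CPM at 2 months, did not pass.

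The change with age differed by transcript length. Without low-Htt libraries the median was -0.13 over the 26 genes with the shortest transcripts, -0.08 over the 25 of middle length and -0.02 over the 26 with the longest. The length index itself differed with age in the controls. In Q20, which had no low-Htt library at either age, it averaged 0.17 at 10 months (0.14 to 0.20) and 0.04 at 2 months (-0.01 to 0.09), without overlap. With the index as a covariate 25 of 77 genes rose and 3 fell, with a median of 0.05, while 7.08% of all genes rose and 8.16% fell. Of the 26 genes that fell without the covariate, 3 still fell (Rpl27, Rps16 and Rps27l) and 0 rose. The 25 that rose included Rpl3 (0.16 ± 0.02, edgeR adjusted p = 9e-06), Rpl14 (0.15 ± 0.02), Rps27a (0.16 ± 0.03), Rpl4 (0.11 ± 0.02) and Rps24 (0.15 ± 0.03). Because the index and age moved together, what age and what transcript length contribute cannot be told apart here. In Q20 alone 27 of 77 fell, against 10.1% of all genes, and in WT alone without its 3 low-Htt libraries 0 of 77 fell, against 0.974% of all genes (edgeR gave an unadjusted p under 0.05 for 11 of 77 and for 19.5% of all genes), with medians of -0.07 and -0.09. All 5 microglia markers rose with age (median 0.57), and their summed level was 85.1 to 102 CPM at 10 months and 62.6 to 76.6 CPM at 2 months in Q20. Other marker sums in Q20 differed too, with ranges that overlapped between the ages. Medians at 10 and 2 months were 4016 and 4561 CPM for granule cells and 2094 and 2235 CPM for Bergmann glia and astrocytes. For oligodendrocytes they were 4766 and 4488 CPM and for Purkinje cells 7275 and 7344 CPM. The part of cell types in the values above was not tested.

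**Figure D5:**
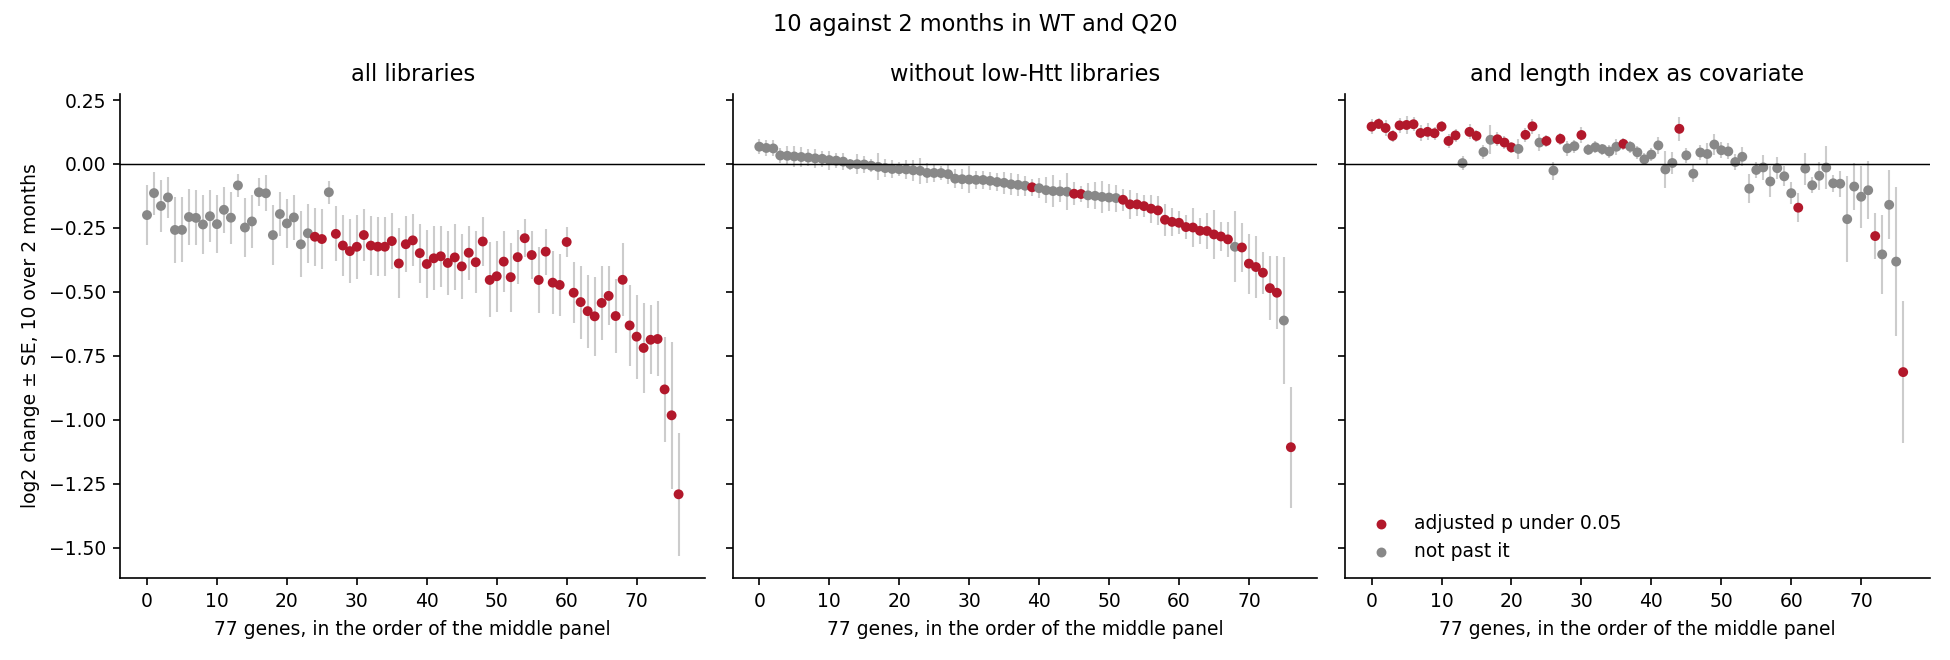
Log2 change ± SE (vertical axis) of the 77 genes at 10 over 2 months in WT and Q20, in the order of the middle panel. The left panel has all libraries (52 fell, 0 rose), the middle panel leaves out low-Htt libraries (26 fell, 0 rose) and the right panel also has the length index as a covariate (3 fell, 25 rose), with red points past an adjusted p of 0.05.

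Sex was compared in the same control libraries of 2 and 10 months. With edgeR 0 of 77 genes passed, with all libraries and without the low-Htt ones, and DESeq2 also called 0. Of all genes 0.0787% and 0.115% passed. The unadjusted p was under 0.05 for 0 and 2 of the 77, and for 2.67% and 6.65% of all genes. Among these controls, the Q20 library F5 of 10 months, was labelled female and had sex-linked genes that did not match, and without the mismatched libraries 0 of 77 passed (median 0.06, low-Htt libraries kept). The medians, male over female, were 0.05 and -0.03. The X-linked genes were at -0.03 ± 0.05 for Rpl10, -0.04 ± 0.04 for Rpl36a, -0.04 ± 0.03 for Rpl39 and -0.05 ± 0.03 for Rps4x without the low-Htt libraries (SE). Human RPS4X escapes X inactivation, and the male to female difference of mouse Rps4x was within 2 SE of 0.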

How the data were processed

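Per the labels, RNA of frozen cerebellum was purified (miRNeasy), its integrity was read on a Bioanalyzer and its poly(A) fraction went into Illumina libraries. The authors deposited expected counts (estimated counts per gene, of which 83.3% were whole numbers) and FPKM, scaled by the authors to transcript length and library total (sums of 393599 to 702066 per library). CASAVA 1.8.2 is the only tool in the submitters' processing notes. For aligner, counter, build and strand the entry is: not given in the sources used here. Of 39179 Ensembl IDs 37607 had a symbol, and 0 columns were left unmatched. Positions are those of GENCODE vM21 on GRCm38.

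Expected counts were rounded and each age was fitted in edgeR 4.0.16 (R 4.3.3; TMM scaling, two-sided quasi-likelihood F-test, Benjamini-Hochberg over 16528 genes, threshold 0.05), with sex and, at 6 months, the library set as covariates. SE is the absolute log2 change over the square root of F. Some counts of unadjusted p-values under 0.05, or of DESeq2 calls, stand without the share of all genes. Such a count cannot be set against that share here. The Z values of the 6 and 10 month slopes were added and divided by the square root of 2 for the combined test. Each library came from 1 mouse, and depth (23448953 to 43066107 counts) makes 1 CPM at least 23 counts. Alternatives were DESeq2 1.42.0, limma 3.58.1 on log2(FPKM + 0.1) and log2(FPKM + 1), RLE factors, TMM factors without the 77 genes, no filter, WT or Q20 alone, the length index, a replicate block, no library set, and leaving out libraries (low Htt, low connectivity, sex markers against the label, each low-Htt library in turn). Combinations of an alternative with leaving out low-Htt libraries were added after the data were seen. The programs were tested on simulated data.

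The 77 genes, the other lists and the named genes were chosen with earlier results of these data known. Named were, for each comparison, up to 10 genes higher and 10 lower with the smallest p past the threshold with all libraries (or, where fewer than 5 passed, without low-Htt libraries), the 5 with the largest and the 5 with the smallest difference in low-Htt libraries, and a list of genes by role. Genes named in the fits with the length index, in the levels, in the pseudogene rows and in the correlations were chosen after their values were seen. A few genes that the naming rule or the lists hold are not reported here by name.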

Additional observations from a re-analysis of the deposited data

Results flagged for a closer look

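The summed level of the 77 genes was examined in 30 groups of 4 to 10 libraries (each line and age, with and without low-Htt libraries where it held any), and in 12 of them 1 library lay far from its group by Dixon's ratio. In separate groups of like libraries chance gives such a library in about 1 of 20. These groups were not separate, since some hold the same libraries as another with the low-Htt ones left out. The low-Htt libraries also stood apart already. The 12 libraries thus cannot be set against that share. With all libraries they were Q111 M1 (15736 CPM), Q140 M3 (29297 CPM) and Q175 F3 (21485 CPM) at 2 months, Q20 F3 (17693 CPM) and Q92 M3 (17794 CPM) at 6 months, and Q92 M2 (18524 CPM) and WT F3 (9511 CPM) at 10 months. All of these but WT F3, with 219 CPM of Htt, were low-Htt libraries. After the low-Htt libraries were left out they were Q111 F1 (9811 CPM), Q140 M1 (10744 CPM), Q80 F3 (8121 CPM) and WT F2 (9621 CPM) at 2 months and Q20 F1 (9584 CPM) at 6 months. Each lay above the rest of its group.

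The CAG slope of Rpl5 was higher at 10 than at 2 months by 0.20 on the log2 scale per 100 CAG (edgeR interaction, adjusted p = 0.015) without low-Htt libraries. Of all genes 2.18% passed in that fit. With all libraries the difference for Rpl5 was 0.12 ± 0.13 (SE, edgeR adjusted p = 0.994) and did not pass.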

How the results depend on the processing

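Counts of the 77 genes past the threshold stayed within 1.5 times the reported value in 1005 alternatives and left it in 99, and medians moved by less than the genes' median SE in 453 and by more in 99. The sign of the median differed in 129, of which 55 were among these 99. Combinations with leaving out low-Htt libraries were chosen after the data were seen. Counts in this section stand without the share of all genes in the same setting, which also changed. For Q175 at 10 months without low-Htt libraries, 9.77% of all genes rose, and 13.6% with the length index added. A changed count here is thus not by itself particular to the 77 genes.

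Q175 at 10 months, 0 rose with all libraries. The count was 5 without low-Htt libraries, 12 without libraries of low connectivity, 35 with the length index, and 1 with each of DESeq2, limma on either log2 FPKM and the replicate block. Without low-Htt libraries it was 40 with the length index, 8 with DESeq2, 7 with Q20 alone, 1 with WT alone, 4 with the replicate block, and 5 each with limma, RLE factors and TMM factors without the 77 genes. Left out in turn, the low-Htt libraries of this age (1 library) gave 5 to 5.

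Q92 at 10 months, 3 rose. DESeq2 gave 17. It was 0 without low-Htt libraries and with each addition to that, without libraries of low connectivity, and with the length index, the replicate block, WT alone, Q20 alone or limma. Leaving out M2 gave 0 to 0. The value of Rpl41, Q92 against controls at 10 months, turned negative there, at -0.0090 without low-Htt libraries or M2, -0.0081 without libraries of low connectivity, and without low-Htt libraries -0.0092 with TMM factors without the 77 genes, -0.0083 with RLE factors, -0.0334 with Q20 alone, -0.0006 with the replicate block, -0.0084 with DESeq2 and -0.0062 with limma.

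CAG slope at 10 months, 0 rose. The count was 2 without low-Htt libraries, 3 without libraries of low connectivity and 19 with the length index. Without low-Htt libraries it was 23 with the length index, 1 with WT alone and with limma, and 2 with TMM factors without the 77 genes, RLE factors, Q20 alone, the replicate block and DESeq2. Leaving out Q92 M2 gave 2 to 2. For the slopes of 6 and 10 months combined it was 2, 10 and 35 under the first of these settings, and without low-Htt libraries 34 with the length index, 1 with limma, and 2 with TMM factors without the 77 genes, RLE factors, WT alone, the replicate block and DESeq2. With Q20 alone the combined slope of Rpl5 was -0.0376 and that of Rps4x -0.0758. In its 6 month part Q175 carried no weight, because of the term for the library set.

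At 6 months, Q175 had 0 genes higher and 0 lower with all libraries. Without libraries of low connectivity it had 1 higher and 1 lower, with the length index 3 higher, and without low-Htt libraries 1 lower. In that last setting it had 3 higher and 1 lower with the length index, 1 higher and 1 lower with RLE factors, WT alone or DESeq2, and 1 lower with TMM factors without the 77 genes or the replicate block. The slope at 6 months had 1 gene higher without libraries of low connectivity or with the length index, and without low-Htt libraries 2 with the length index and 1 with WT alone. For Q111 at 6 months, leaving out each low-Htt library in turn gave 0 to 34 genes lower.

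Age, 52 fell and 0 rose. The number lower was 26 without low-Htt libraries or those of low connectivity, 7 with the length index (32 higher, median 0.0517), 25 with WT alone and 27 with Q20 alone. Without low-Htt libraries it was 3 with the length index (25 higher, median 0.0493), 25 with TMM factors without the 77 genes, 26 with RLE factors, 0 with WT alone, 27 with Q20 alone, 20 with the replicate block, 30 with DESeq2 and 23 with limma. The difference of the slopes had 0 genes higher with all libraries, and 1 without low-Htt libraries or with the length index. Without low-Htt libraries it had 3 with the length index and 1 with each of TMM factors without the 77 genes, RLE factors, Q20 alone, the replicate block, DESeq2 and limma. For this difference the counts with WT alone and without libraries of low connectivity are not given here. The cause of these shifts was not tested.

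The replicate numbers of the labels were not taken to pair samples across lines. Not every pair of like number correlated above 0.1, but this cannot decide whether the numbers pair samples. Deviations of same-numbered libraries, which share sex and age, correlated at a median of 0.11 (481 pairs, 52.8% over 0.1). Those of other numbers at the same age correlated at -0.01 (3456 pairs, 35.7% over 0.1), and these pairs also crossed the sexes. Sex was not removed from the deviations, so number and sex cannot be told apart in this contrast. With the replicate block and all libraries 51 genes fell with age.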
